A study of Mus musculus with 16 samples.

Results

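The Ly6 surface antigens described here are the 6 genes Ly6a, Ly6c1, Ly6c2, Ly6e, Ly6g and Ly6i, chosen by gene name from the 20200 genes of the table of raw read counts. Of the 6, 5 passed the filter on low counts and were among the 11998 genes tested, and Ly6c1 did not pass. The libraries are bulk RNA-seq of myeloid cells flow-sorted from wild-type C57BL/6 mice, out of the tissue between tendon graft and bone after anterior cruciate ligament reconstruction, with 2 libraries for each of 4 populations on days 1 and 14 (16 libraries in 8 groups). Every population was gated as live, Lin-, CD45+ cells. CD9+ cells were Ly6G-, CD11b+, F4/80+ and CD9+. CX3CR1+ cells were Ly6G-, CD11b+, F4/80+, CX3CR1+ and CD9-. F4/80- cells were Ly6G-, CD11b+ and F4/80-, and neutrophils were Ly6G+ and Ly6C+. The labels give Ly6C for neutrophils alone, but the text of the study also describes F4/80+ macrophages in its flow cytometry as Ly6C+. Each library pooled the tissue of several adult male mice, and the rare cells with both CD9 and CX3CR1 fell in the CD9+ sort, so p-values measure only the spread between these pools. The mice stated were too few for each library to have its own, so some populations of a day shared animals, and whether equal replicate numbers mark the same pool is not given in the sources used here. Unoperated tissue was not analysed here. The study asked how macrophage populations of the healing graft change with time, and the Ly6 genes bear on this because 2 of their products are themselves gates of the sort.

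Ly6 proteins are small, cysteine-rich antigens held on the outer leaflet of the plasma membrane by a glycosylphosphatidylinositol (GPI) anchor. Ly6C, encoded by the neighbouring genes Ly6c1 and Ly6c2, separates classical from patrolling monocytes, and Ly6G is the standard surface marker of mouse neutrophils. Ly6a encodes Sca-1, used to isolate stem cells and carried by many activated leukocytes, Ly6e encodes an interferon-induced protein that limits the entry of some viruses, and Ly6i encodes a close relative of Ly6C and Sca-1 that is less well known.

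All 6 genes lie on chromosome 15 of the mm10 build within 1 cluster. Ly6e (ENSMUSG00000022587) spans 74955051 to 74959905 on the plus strand, followed by Ly6i (ENSMUSG00000022586) from 74979534 to 74983430 and Ly6a (ENSMUSG00000075602) from 74994877 to 74998031, both on the minus strand. Ly6c1 (ENSMUSG00000079018) lies at 75044018 to 75048830 and Ly6c2 (ENSMUSG00000022584) at 75108158 to 75111970, both on the minus strand. Ly6g (ENSMUSG00000022582) is the last of the 6, at 75155240 to 75159126 on the plus strand. The values below are counts of reads on exons of these genes.

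The coding sequences of Ly6c1 and Ly6c2 were 90.6% identical over 393 aligned bases, the closest of the 15 pairs, so a read from one can fall on the other. For each gene the transcript with the longest coding sequence was used, with 441 bases for Ly6c1 and 393 for Ly6c2. Other transcripts were not aligned, and identities with Ly6c1 may depend on this choice. The first coding exon, of 70 bases, differed at 6 positions, which are printed in capitals, and the second, of 117 bases, at 0. Reads were counted over all exons, so these coding exons are only a part of what sets how far the pair can be told apart. The rest of the coding sequence is not printed. They are shown as examples of stretches with few or no differences (Gencode M21 exons on mm10, minus strand, 5′ to 3′).
Ly6c1 coding exon 1: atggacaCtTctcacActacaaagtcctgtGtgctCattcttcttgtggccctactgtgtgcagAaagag
Ly6c2 coding exon 1: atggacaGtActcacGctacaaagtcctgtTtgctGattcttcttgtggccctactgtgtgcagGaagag
Ly6c1 and Ly6c2 coding exon 2: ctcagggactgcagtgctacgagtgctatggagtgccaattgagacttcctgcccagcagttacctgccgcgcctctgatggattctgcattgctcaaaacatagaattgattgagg

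Identical stretches were then counted over all annotated transcripts. For Ly6c1, 32.8% of the 50-base windows also occurred in another gene, 21.5% in Ly6c2 and 11.1% in Ly6a. The share was 19% for Ly6a, 14.5% for Ly6c2 and 4.76% for Ly6i. Ly6e shared 0 of its 4184 windows and Ly6g 4 of 892, so their counts are the least exposed to reads split between relatives. With 100-base windows the shares were 10.1% for Ly6c1, 5.81% for Ly6c2 and 1.45% for Ly6a, and 0 for the other 3 genes. Ly6e also stood apart in its coding sequence, which was 57.1% to 59.3% identical to those of the other 5 genes, while these 5 were 76.3% to 90.6% identical to each other.

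**Figure D1:**
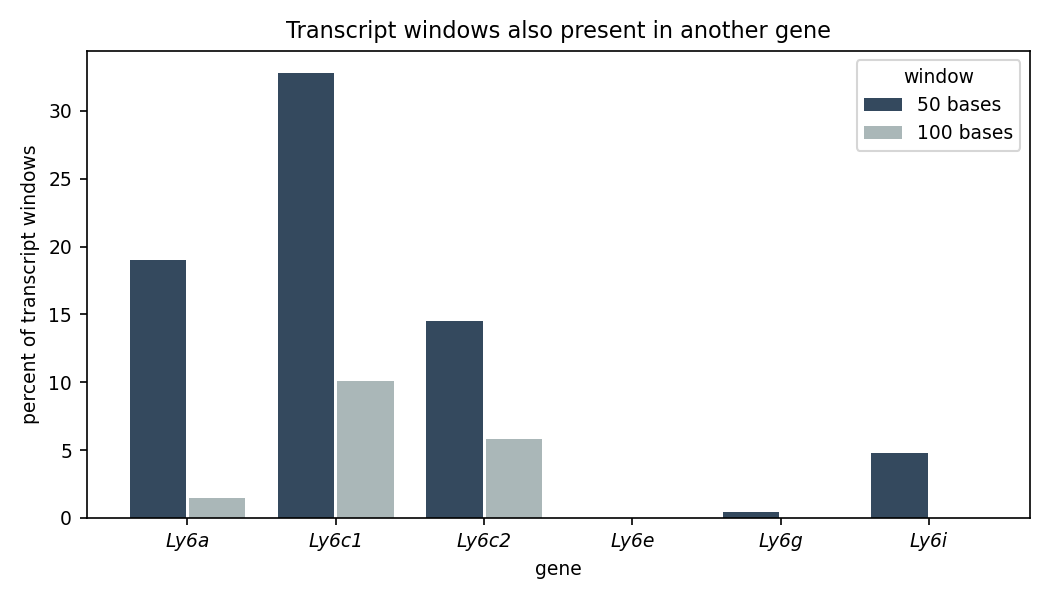
Percent of the 50-base (dark bars) and 100-base (pale bars) windows of each gene's annotated transcripts that also occur in a transcript of another gene. Ly6c1 has the tallest bars, at 32.8% and 10.1%, and Ly6e has none.

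The 250 bases before the start of transcription were at hand for 3 of the 6 genes (RefSeq, GRCm38.p6). These 3 relatives were read at very different levels, and the part of these sequences in that was not tested. Capitals mark matches to the TATA box motif, TATAAA. They also mark the CCAAT box and a purine-rich motif that ETS factors can bind, GAGGAAG. Each motif was searched on both strands, and no match overlapped another.
Ly6c1, 75048838 to 75049087, minus strand: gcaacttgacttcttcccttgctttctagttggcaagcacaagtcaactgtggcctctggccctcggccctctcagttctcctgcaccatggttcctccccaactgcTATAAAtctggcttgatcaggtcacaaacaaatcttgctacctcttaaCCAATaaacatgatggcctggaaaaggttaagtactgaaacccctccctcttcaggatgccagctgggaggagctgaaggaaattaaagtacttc
Ly6c2, 75111972 to 75112221, minus strand: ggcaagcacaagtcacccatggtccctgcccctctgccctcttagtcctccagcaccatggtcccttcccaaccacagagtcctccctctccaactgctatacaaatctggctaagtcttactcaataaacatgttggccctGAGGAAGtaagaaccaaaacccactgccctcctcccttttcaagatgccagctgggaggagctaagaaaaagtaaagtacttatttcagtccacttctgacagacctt
Ly6g, 75155011 to 75155260, plus strand: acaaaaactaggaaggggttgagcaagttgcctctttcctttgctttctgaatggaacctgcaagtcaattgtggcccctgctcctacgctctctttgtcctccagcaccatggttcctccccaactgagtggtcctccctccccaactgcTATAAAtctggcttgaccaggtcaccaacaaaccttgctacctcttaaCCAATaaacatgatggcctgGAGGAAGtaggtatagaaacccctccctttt
Distances are from the RefSeq start, which for Ly6g lies inside the Gencode span given above, so that this window runs a short way into the span. TATAAA began 143 bases before the start of Ly6c1 and 99 before that of Ly6g, and CCAAT 95 and 51 bases before. GAGGAAG began 108 bases before the start of Ly6c2 and 31 before that of Ly6g. Of 32851 promoters of the same length, 12.4% held TATAAA, 33.8% CCAAT and 10.6% GAGGAAG. The interferon-related letters TTCNNNGAA (GAS element, 7.02% of promoters) and the core of the interferon-stimulated response element (ISRE, GAAA, any 2 bases, GAAA, 2.98%) matched none of the 3 windows.

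Total counts per library lay between 9233952 and 19814119. Levels are given as CPM (counts scaled to a common library total with the TMM factor of edgeR), and this factor was 0.752 to 0.781 in neutrophils and 0.897 to 1.16 in the other populations. A count of 3 corresponded to 0.131 to 0.36 CPM and was taken as the floor. Intervals and floors given here cover counting error only, with each read taken as an independent count. The reads carry no molecular identifiers, so copies of the same molecule may be counted more than once and the intervals can be too narrow. The replicates of CD9+ cells on day 1 stood apart from each other: over all tested genes their log2 CPM correlated with r = 0.935 and differed with an SD of 0.912, against r of 0.976 to 0.988 and SDs of 0.382 to 0.625 in the other 7 groups. The macrophage marker list (11 of 11 genes measured) summed to 2045 to 4187 CPM in CD9+ and CX3CR1+ cells and to 221 to 758 CPM in F4/80- cells and neutrophils, with at most 2 of its genes at 0 in a library. The eosinophil, basophil and mast cell list (8 of 8 genes) reached 6033 and 9556 CPM in CD9+ cells on day 14, against at most 1412 CPM in any other library.

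In each comparison a gene was called when edgeR's quasi-likelihood test gave a Benjamini-Hochberg adjusted p under 0.05 over all 11998 tested genes and the log2 fold change was at least 1 in size. The plot of levels by library gives the data behind all of what follows.

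**Figure D2:**
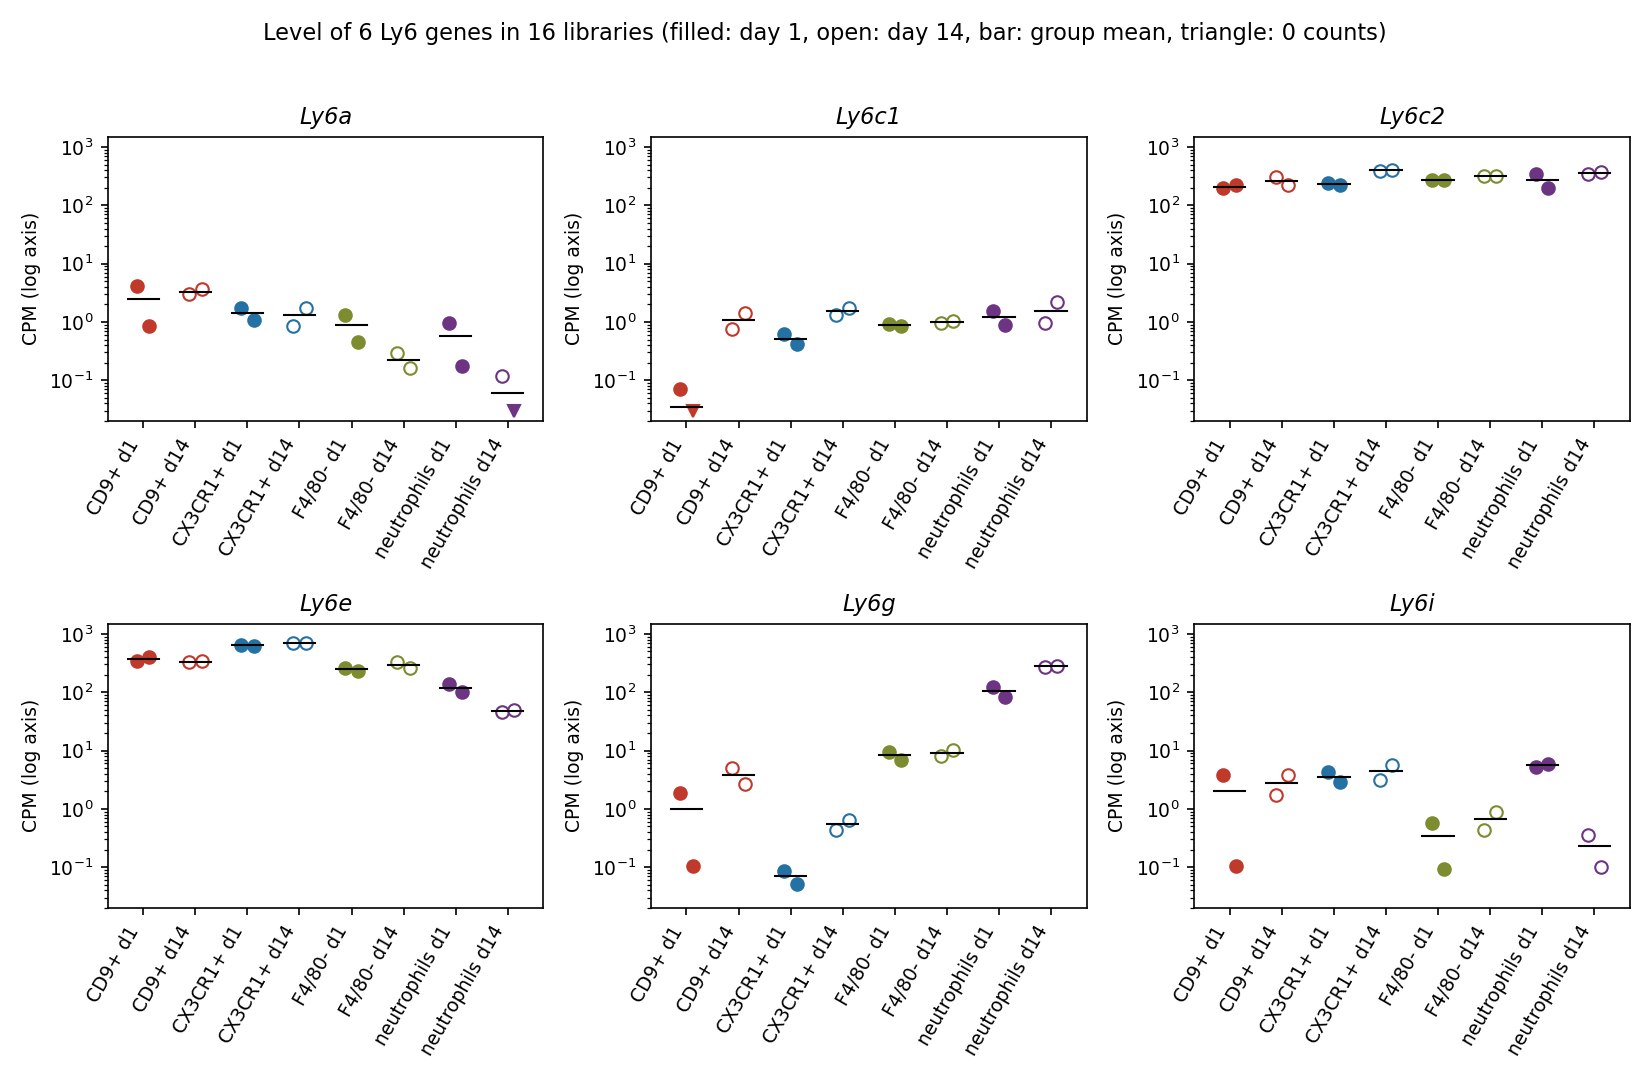
Level of each of the 6 genes in the 16 libraries, as CPM on a log axis. Filled points are day 1 and open points day 14, bars are the group means of 2 libraries, and triangles mark libraries with 0 counts. Ly6e and Ly6c2 stay above 45 CPM in every library, Ly6g is high in neutrophils alone, and Ly6a, Ly6c1 and Ly6i stay below 6 CPM throughout.

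Ly6c2, the more abundant of the Ly6C genes, was read at a similar level in every sort. The part of the Ly6C gates described above in this even level was not tested. In CD9+ cells it had 195 and 220 CPM on day 1 and 303 and 219.7 CPM on day 14. In CX3CR1+ cells it had 238 and 221 CPM on day 1 and 393 and 405 CPM on day 14. F4/80- cells had 277 and 275 CPM on day 1 and 324 and 316.5 CPM on day 14, and neutrophils had 349 and 195 CPM and then 347 and 374 CPM. The highest group mean, CX3CR1+ cells on day 14 at 399 ± 8.10 CPM (SD, n = 2), and the lowest, CD9+ cells on day 1 at 208 ± 17.6 CPM, differed by a smaller ratio than the extreme groups of any other tested member. In order of the means, CX3CR1+ cells on day 14 were followed by neutrophils and F4/80- cells of the same day, and the libraries of these groups did not overlap each other. Replicate 1 of neutrophils on day 1, at 349 CPM, lay above both F4/80- libraries of day 14 and within the range of neutrophils of day 14. The libraries of the next groups, F4/80- cells and neutrophils on day 1, CD9+ cells on day 14 and CX3CR1+ cells on day 1, overlapped each with its neighbour in that order.

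Ly6c2 was called in 0 of 22 comparisons by edgeR, and in 0 by DESeq2. It had an unadjusted p under 0.05 in 3 comparisons. The largest was the difference of CX3CR1+ cells between the days, with a log2 fold change of 0.80 (SE 0.21, edgeR adjusted p = 0.0186), where the libraries of day 14 exceeded those of day 1 without overlap but the fold threshold was not met. On day 14 the level in CD9+ cells was lower than in CX3CR1+ cells by a log2 fold change of -0.61 (SE 0.21, edgeR adjusted p = 0.0397), also short of the fold threshold. The direction against neutrophils depended on the scaling: for CX3CR1+ cells on day 1 it was -0.25 with TMM factors and 0.33 with library size alone, and for F4/80- cells on day 14 it was -0.17 and 0.39.

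Of the genes usually read with Ly6C, Ccr2 and the classical monocyte list did not share this even level. Ccr2, the chemokine receptor of classical monocytes, had 1364 to 1524 CPM in CX3CR1+ cells, 266 to 636 CPM in CD9+ cells, 267 to 320 CPM in F4/80- cells and 7.70 to 69.3 CPM in neutrophils. Cx3cr1 encodes the fractalkine receptor, the antigen that defines the CX3CR1+ sort, so its difference between these sorts follows the gate. It had 133 to 292 CPM in the CX3CR1+ sort and 72.7 to 107 CPM in the CD9+ sort. The classical monocyte list (9 of 9 genes, 0 at 0) summed to 16110 to 18850 CPM in CX3CR1+ cells, to 17800 and 22070 CPM on day 1 and 6396 and 6950 CPM on day 14 in CD9+ cells, and to 3716 to 5720 CPM in F4/80- cells and neutrophils. The list of patrolling, nonclassical monocytes (10 of 10 genes, at most 1 at 0) summed to 1131 to 1452 CPM in CD9+, 1225 to 2155 CPM in CX3CR1+ and 1062 to 1415 CPM in F4/80- cells, and to 1863 to 2702 CPM in neutrophils. In bulk libraries fewer cells of a type and less RNA per cell cannot be told apart, here and in what follows.

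Ly6c1, the second Ly6C gene, made up 203 of the 62493 counts of the pair, or 0.325%. For day 1 and then day 14, CX3CR1+ cells had 14 and 8 and then 15 and 19 counts, F4/80- cells 19 and 19 and then 13 and 13, and neutrophils 21 and 10 and then 8 and 21. The CD9+ sort had 1 and 0 counts on day 1, followed by 8 and 14. Thus Ly6c1 was at or under the floor in both CD9+ libraries of day 1 and above it in the other 14. Its share of the pair was 0.0361% in replicate 1 of that group (95% Clopper-Pearson interval 0.000913% to 0.201%) and 0 of 2091 in replicate 2, where the upper bound of the same interval is 0.176% and the limit of 3 counts is 0.143%. Elsewhere it was 0.188% to 0.64%.

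Counted against the scaled totals, the 22 counts of Ly6c1 in CD9+ cells on day 14 and the 1 count on day 1 gave a ratio of 25.6 with a counting interval of 4.14 to 1056. Ly6c1 did not pass the filter. In a fit of all 20200 genes, which has its own adjustment, this difference had a log2 fold change of 4.45 (edgeR adjusted p = 0.0167), a value that depends on the prior count. Since 21.5% of its 50-base windows occur in Ly6c2, whose counts were far higher in every library, the part of Ly6c1 counts that comes from Ly6c2 was not tested.

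Ly6g, which encodes the antigen used to sort neutrophils, was high in neutrophils by the choice of the gate. Neutrophils had 124.6 and 81.4 CPM on day 1 and 267 and 285 CPM on day 14. The rise within neutrophils, 2.67-fold (log2 fold change 1.42, SE 0.32, edgeR adjusted p = 0.00357), used libraries that passed the same gate on both days, and the 2 days did not overlap. It stayed called without any 1 of the 16 libraries, between 1.15 and 1.76 on the log2 scale. The neutrophil marker list (15 of 15 genes, 0 at 0) summed to 59590 and 97950 CPM on day 1 and to 119100 and 125700 CPM on day 14. Its part in the Ly6g difference was not tested.

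The 3 sorts that removed Ly6G+ cells still held Ly6g reads, and at different levels. In F4/80- cells Ly6g had 9.62 and 6.94 CPM on day 1 and 8.19 and 10.1 CPM on day 14. CD9+ cells had 1.90 and 0.105 CPM on day 1, from 27 and 1 counts, and 4.97 and 2.63 CPM on day 14. In the CX3CR1+ sort 2 and 1 reads were counted on day 1, and 5 and 7 on day 14. So F4/80- cells were above the other 2 of these sorts in every library, and CX3CR1+ cells were under the floor on day 1 and just above it on day 14. The sum of the neutrophil list moved in the same order, with 37040 to 47130 CPM in F4/80- cells, 6454 to 22830 CPM in CD9+ cells and 887.5 to 1277 CPM in CX3CR1+ cells, with at most 1 gene at 0. Of its genes, S100a8 and S100a9 kept this order and Csf3r did not. Csf3r had 209 to 237 CPM in CX3CR1+, 145 to 213.5 CPM in F4/80- and 91 to 155 CPM in CD9+ cells. In neutrophils it had 2366 to 3794 CPM. Whether the Ly6g reads come from neutrophils in the sorts was not tested.

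In CX3CR1+ cells Ly6g was lower than in F4/80- cells by log2 values of -6.69 (SE 0.68, edgeR adjusted p = 1.92e-06) on day 1 and -4.06 (SE 0.57, edgeR adjusted p = 4.19e-05) on day 14. As counts, the day 1 difference was 350 against 3, a ratio of 115 with a counting interval of 39.2 to 562. On day 1 CD9+ cells were lower than F4/80- cells, at a log2 fold change of -2.84 (SE 0.48, edgeR adjusted p = 0.000453), which was -6.18 without replicate 1 of CD9+ cells and -2.11 without replicate 2. On day 14 the value of -1.25 was not called (edgeR adjusted p = 0.0604), although DESeq2 called it with -1.30 and an adjusted p of 0.00471, and edgeR with a replicate block within each day called it with -1.25 and an adjusted p of 0.0243.

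CD9+ cells held more Ly6g reads than CX3CR1+ cells on day 14, by a log2 fold change of 2.81 (SE 0.65, edgeR adjusted p = 0.00437), and all CD9+ values lay above all CX3CR1+ values. This call was lost without replicate 1 of CD9+ cells (2.27, adjusted p = 0.0684) or of CX3CR1+ cells (2.54, adjusted p = 0.0516) on day 14. On day 1 the counts were 28 against 3, a ratio of 16.6 with a counting interval of 5.12 to 85.2 (fitted log2 fold change 3.84, edgeR adjusted p = 0.0167). Without replicate 1 of CD9+ cells on day 1 the day 1 value was 0.51 (adjusted p = 0.881), and without replicate 1 or 2 of CX3CR1+ cells it was 4.22 or 3.55 and no longer called (adjusted p = 0.0909 and 0.096).

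The day 14 against day 1 difference of Ly6g in CD9+ cells was called as well, with a log2 fold change of 1.73 (SE 0.55, edgeR adjusted p = 0.0419). It rests on the pair of day 1 libraries that stood apart, whose neutrophil list sums were 19980 and 6454 CPM. Without replicate 1 the value was 5.07 (adjusted p = 0.00116) and without replicate 2 it was 1.00 (adjusted p = 0.139). Without replicate 1 of day 14 it was 1.20 (adjusted p = 0.337), and in 12 of the 16 fits that left out a library the call was lost.

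Ly6e, the interferon-induced member, was highest by its means in CX3CR1+ cells, followed by CD9+ cells, F4/80- cells and neutrophils on both days. CX3CR1+ cells had 646 and 621 CPM on day 1 and 696.5 and 708 CPM on day 14. CD9+ cells had 349 and 401 CPM on day 1 and 324.5 and 339 CPM on day 14. F4/80- cells had 262 and 235 CPM and then 326 and 259 CPM, and neutrophils had 140.1 and 99.3 CPM and then 45.3 and 48.6 CPM. In words, every CX3CR1+ library was above every other library, every neutrophil library was below, and CD9+ and F4/80- cells overlapped only on day 14.

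In neutrophils Ly6e fell from day 1 to day 14 by 1.35 on the log2 scale (SE 0.16, edgeR adjusted p = 2.21e-05), to 0.392-fold of its day 1 level. It stayed called without any 1 library, between -1.58 and -1.08. In the other 3 populations the same difference was -0.17 in CD9+ cells, 0.15 in CX3CR1+ cells and 0.23 in F4/80- cells, and none was called (edgeR adjusted p = 0.476, 0.599 and 0.449). In CD9+ cells its sign depended on the scaling, being 0.03 with library size alone.

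Between populations Ly6e was higher in CX3CR1+ cells than in neutrophils 5.29-fold on day 1 (log2 fold change 2.40, SE 0.16, edgeR adjusted p = 7.69e-09) and 14.97-fold on day 14 (3.90, SE 0.18, edgeR adjusted p = 1.01e-10). Against F4/80- cells the log2 fold changes of CX3CR1+ cells were 1.35 on day 1 and 1.26 on day 14 (edgeR adjusted p = 7.52e-06 and 1.37e-05). CD9+ cells were lower than CX3CR1+ cells on day 14, at a log2 fold change of -1.08 (SE 0.16, edgeR adjusted p = 9.90e-05). On day 1 that value was -0.76 (edgeR adjusted p = 0.00402), under the fold threshold. F4/80- cells exceeded neutrophils by 1.05 on day 1 and 2.64 on day 14, and the day 1 call was lost without replicate 2 of day 1 neutrophils (0.83).

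Ly6a, the Sca-1 gene, was low throughout and was read most in CD9+ cells. CD9+ cells had 4.09 and 0.843 CPM on day 1, from 58 and 8 counts, and 2.96 and 3.64 CPM on day 14. CX3CR1+ cells had 1.75 and 1.09 CPM and then 0.869 and 1.76 CPM. In F4/80- cells it had 1.31 and 0.456 CPM and then 0.290 and 0.163 CPM, and neutrophils had 0.972 and 0.175 CPM and then 0.120 and 0 CPM. On day 14 both CD9+ libraries were above all others, while on day 1 their range overlapped those of the other 3 populations.

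Ly6a passed the filter on low counts through the CD9+ cells of day 14 alone, with a mean of 3.3 CPM. The next highest group mean was 2.465 CPM, in CD9+ cells on day 1. Calls with the CD9+ cells of day 14 as the higher group were thus set in part by the filter. On day 14 Ly6a was higher in CD9+ than in F4/80- cells by a log2 fold change of 3.80 (SE 0.99, edgeR adjusted p = 0.0186). The call was lost without replicate 2 of CD9+ cells (3.62, adjusted p = 0.11) and without replicate 1 or 2 of F4/80- cells (4.25 and 3.45, adjusted p = 0.119 and 0.176), all of day 14. Against the neutrophils of day 14, with 1 count in all, the 67 counts of CD9+ cells gave a ratio of 59.4 (counting interval 10.3 to 2383) and the 29 of CX3CR1+ cells a ratio of 23.5 (3.89 to 958). Both differences from neutrophils were called (edgeR adjusted p = 0.00134 and 0.0134), the second not without replicate 2 of CX3CR1+ cells (3.79 on the log2 scale, adjusted p = 0.0648) or of neutrophils (3.35, adjusted p = 0.102). With a replicate block Ly6a was also called between CX3CR1+ and F4/80- cells on day 14 (2.43, edgeR adjusted p = 0.0391, against 2.47 and 0.0752 without it).

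The day 1 call of Ly6a between CD9+ cells and neutrophils (log2 fold change 2.09, SE 0.88, edgeR adjusted p = 0.0464) was the least steady of the 4 calls of this gene. It was 0.50 without replicate 1 of CD9+ cells (adjusted p = 0.68) and 1.37 without replicate 2 of neutrophils (adjusted p = 0.252), and 9 of the 16 fits without a library lost it. Lists for other cells known for Sca-1 were summed beside it. The endothelial list (7 of 10 genes measured) summed to 33.6 to 53.0 CPM in CD9+ cells, 47.6 to 67.4 CPM in F4/80- cells and 14.1 to 28.4 CPM in CX3CR1+ cells and neutrophils. The stem and progenitor list (7 of 8 genes) summed to 35.0 and 81.1 CPM in CD9+ cells on day 1 and 120.4 and 163 CPM on day 14, to 344 to 528 CPM in F4/80- cells and to 17.8 to 69.2 CPM in CX3CR1+ cells and neutrophils. Up to 4 endothelial and 3 progenitor genes were at 0 in a library. The T and NK cell list (6 of 10 genes) stayed at 0.833 to 9.13 CPM. The eosinophil list, given above, was highest in the CD9+ cells of day 14, and the part of any of these cell types in the Ly6a reads was not tested.

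Ly6i, the remaining relative, had the largest called fold change over time of the tested members, in neutrophils. Neutrophils had 5.31 and 5.77 CPM on day 1, from 71 and 66 counts, and 3 and 1 counts on day 14. CX3CR1+ cells had 4.25 and 2.87 CPM and then 3.13 and 5.64 CPM. F4/80- cells had 0.583 and 0.0913 CPM and then 0.435 and 0.895 CPM, and CD9+ cells had 3.88 and 0.105 CPM, from 55 and 1 counts, and then 1.72 and 3.84 CPM. By their means neutrophils were thus the highest of the 8 groups on day 1 and the lowest on day 14, at or under the floor, with no overlap between the days.

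The neutrophil counts of Ly6i, 137 on day 1 against 4 on day 14, gave a ratio of 24.9 with a counting interval of 9.52 to 92.8. The fitted log2 fold change was -4.58 (SE 1.19, edgeR adjusted p = 0.00962). Without replicate 2 of day 14 neutrophils it was -3.91 and no longer called (adjusted p = 0.104). The macrophage list moved alongside, from 720 and 758 CPM in neutrophils on day 1 to 234 and 236 CPM on day 14, and Adgre1, the F4/80 gene, from 41.2 and 43.5 CPM to 20.2 and 23.9 CPM. Their part in the Ly6i difference was not tested, nor was that of windows shared with Ly6a.

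Ly6i was low in F4/80- cells. On day 1 it was lower in them than in neutrophils (log2 fold change -4.02, SE 1.005, edgeR adjusted p = 0.00241). CX3CR1+ cells exceeded them by 3.38 on day 1 (SE 0.99, edgeR adjusted p = 0.0142) and 2.72 on day 14 (SE 0.98, edgeR adjusted p = 0.0399). The first of these was lost without replicate 1 of CX3CR1+ cells (3.06, adjusted p = 0.0649) or replicate 2 of F4/80- cells (2.59, adjusted p = 0.129). The second was lost in 7 of 16 fits without a library, where it lay between 2.23 and 3.29.

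On day 14 Ly6i was also called higher in CX3CR1+ and CD9+ cells than in neutrophils. As counts these were 97 against 4, a ratio of 19.6 (counting interval 7.42 to 73.5, edgeR adjusted p = 0.00569), and 56 against 4, a ratio of 12.4 (4.59 to 47.2, edgeR adjusted p = 0.0172). Without replicate 2 of day 14 neutrophils neither was called (3.57 and 2.91 on the log2 scale, adjusted p = 0.0604 and 0.119), and the second was also lost without replicate 2 of CD9+ cells (2.91, adjusted p = 0.0971). The day 1 libraries of CD9+ cells were on opposite sides of the floor, and the difference of Ly6i between the days in CD9+ cells was 0.41 with both, 4.60 without replicate 1 (adjusted p = 0.0159) and -0.48 without replicate 2 (adjusted p = 0.676).

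Across the 5 tested members, 3 were called between the days in neutrophils, where 14.1% of all tested genes were called. In CD9+ cells 1 was called, against 8.23% of all genes. In CX3CR1+ cells 0 were called, against 5.86%, with 2 at an unadjusted p under 0.05 and 1 called by DESeq2, Ly6g (2.91 on the log2 scale, adjusted p = 0.0247; 12 against 3 counts). In F4/80- cells 0 were called, against 3.25%, with 0 at an unadjusted p under 0.05 and 0 by DESeq2. The median log2 fold change of the 5 members was -1.35 in neutrophils, 0.38 in CD9+, 0.30 in CX3CR1+ and 0.21 in F4/80- cells, and that of all tested genes was -0.02, 0.00, 0.03 and -0.02.

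**Figure D3:**
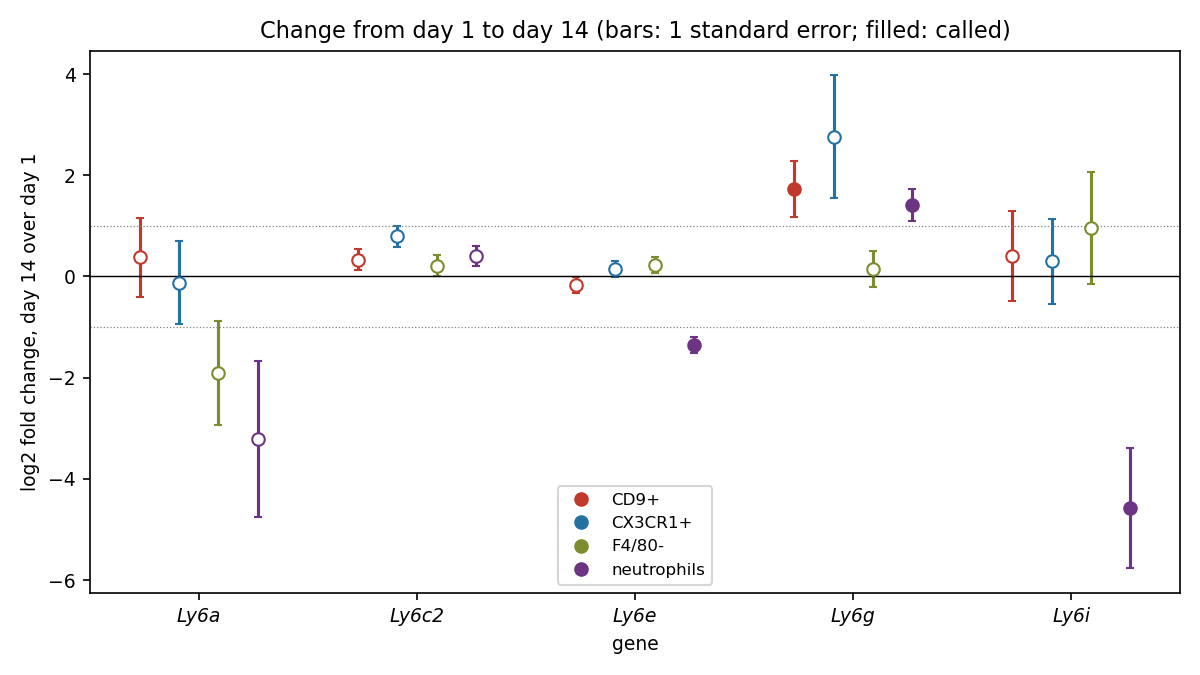
Log2 fold change of day 14 against day 1 for the 5 tested genes in each of the 4 populations, with bars of 1 SE. Filled points were called: Ly6e at -1.35, Ly6g at 1.42 and Ly6i at -4.58 in neutrophils, and Ly6g at 1.73 in CD9+ cells.

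Between populations on day 1, the members called were 1 of 5 in CD9+ against CX3CR1+ cells (8.23% of all tested genes), 1 in CD9+ against F4/80- cells (15.4%) and 3 in CX3CR1+ against F4/80- cells (21.1%). Against neutrophils they were 3 in CD9+ (49.5%), 2 in CX3CR1+ (51%) and 3 in F4/80- cells (49%). On day 14 they were 2 in CD9+ against CX3CR1+ cells (14.2%), 1 in CD9+ against F4/80- cells (7.7%) and 3 in CX3CR1+ against F4/80- cells (21.5%), and against neutrophils 4 in CD9+ (49.5%), 4 in CX3CR1+ (48%) and 2 in F4/80- cells (48.7%). Each count against neutrophils includes Ly6g, which the sort fixed. Those of CD9+ cells on day 14 against F4/80- cells and neutrophils include Ly6a, which the filter kept through that group of CD9+ cells alone. The comparisons of a day share their libraries and are not independent. With 5 genes, counts of 2 or 3 against neutrophils are near the share of all genes.

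The change over time was then compared between populations. Ly6e and Ly6i fell in neutrophils, and the difference from the change in each other population was called for both. For Ly6e it was 1.18 for CD9+ (SE 0.23, edgeR adjusted p = 0.00376), 1.502 for CX3CR1+ (SE 0.23, edgeR adjusted p = 0.000424) and 1.59 for F4/80- cells (SE 0.23, edgeR adjusted p = 0.00028). For Ly6i it was 4.99, 4.87 and 5.54 (SE 1.51, 1.48 and 1.66, edgeR adjusted p = 0.0453, 0.0435 and 0.0444). All 3 differences of a gene share the neutrophil libraries. Thus 2 of 5 members were called in each of these comparisons, where 8.03%, 9.09% and 7.73% of all genes were. For Ly6g the change in F4/80- cells against neutrophils was -1.28 (edgeR adjusted p = 0.102), and it was called with a replicate block (-1.29, edgeR adjusted p = 0.0438) and by DESeq2 (-1.30, adjusted p = 0.0388).

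Among the 3 sorts without neutrophils 0 members were called in the change of CD9+ against CX3CR1+ cells (2.28% of all genes), CD9+ against F4/80- cells (1.69%) and CX3CR1+ against F4/80- cells (1.01%) by edgeR, with 0, 1 and 0 at an unadjusted p under 0.05 and 0 by DESeq2. The Ly6e calls held in every fit without a library except that for CD9+ cells without replicate 1 of day 1 neutrophils (0.91). The Ly6i calls were lost in 12, 12 and 13 of the 16 such fits, with values of 4.10 to 9.18, 4.21 to 5.94 and 4.73 to 7.28.

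The balance among the members was compared per length of transcript, as RPKM (CPM with the TMM factors, divided by the exon length in kilobases). Summed over the 6 genes the level was 171 to 453 RPKM per library, and Ly6c2, Ly6e and Ly6g together made up nearly all of it. Ly6e took 64.9% and 66% of the sum in CX3CR1+ cells on day 1 and 55.4% and 54.6% on day 14, and 41.6% to 56.6% in CD9+ cells. In F4/80- cells Ly6c2 took the larger share, 55.2% to 58.9%, with Ly6e at 34.9% to 40.2%. In neutrophils Ly6g took 43.7% and 45.6% on day 1 and 67% and 66.7% on day 14, while Ly6e went from 12.2% and 13.8% to 2.83% in both replicates.

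The ratio of Ly6e to Ly6c2 in RPKM, which no library scaling can change, was 1.97 and 2.03 in CX3CR1+ cells on day 1 and 1.28 and 1.27 on day 14. In neutrophils it was 0.291 and 0.369 and then 0.0945 and 0.094. In CD9+ cells it was 1.29 and 1.32 and then 0.775 and 1.12, and in F4/80- cells 0.686 and 0.619 and then 0.729 and 0.592. The days did not overlap in the first 3 populations and overlapped in F4/80- cells. The ratio shows unequal change of the 2 genes only. Ly6a, Ly6c1 and Ly6i took at most 1.97%, 0.469% and 2.64% of the sum.

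**Figure D4:**
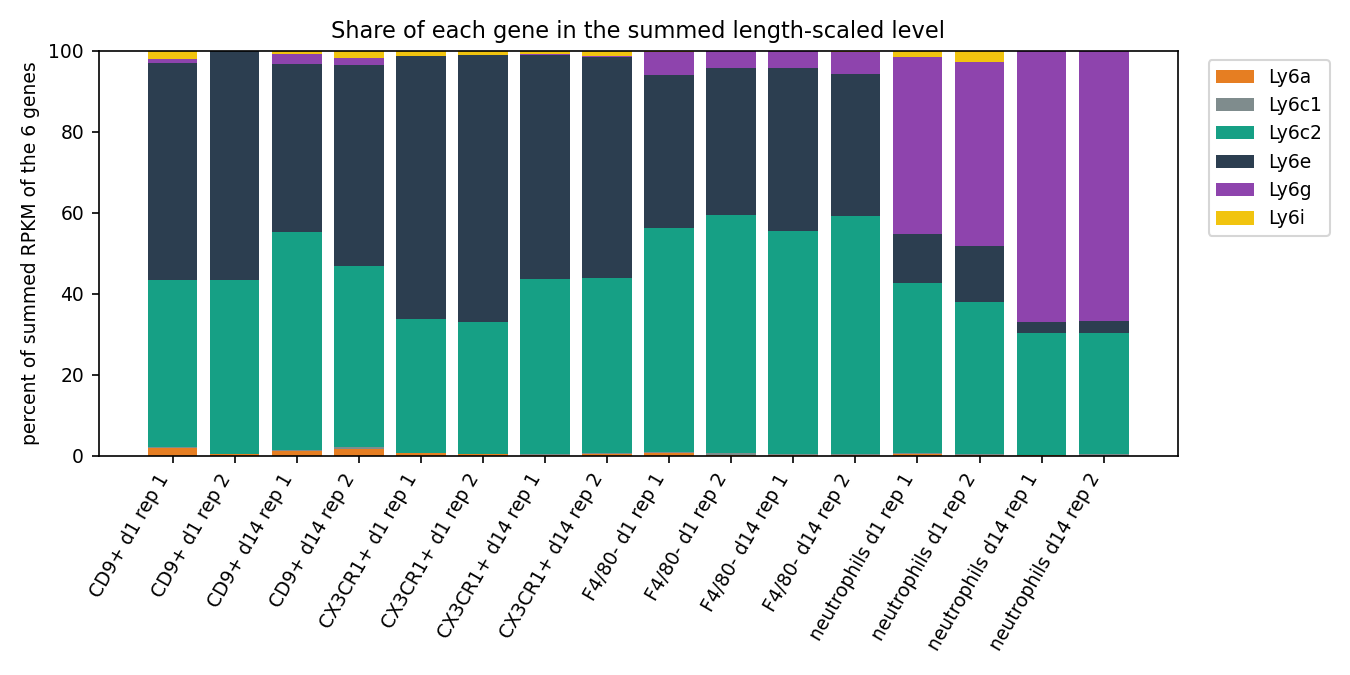
Share of each gene in the summed RPKM of the 6 Ly6 genes, in percent, stacked for each of the 16 libraries. Ly6e and Ly6c2 fill most of each bar in CD9+, CX3CR1+ and F4/80- cells, and Ly6g takes 43.7% to 67% in neutrophils.

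Other genes of the Ly6 and uPAR superfamily were few in these cells: of 35 on the list, 9 were in the table and 4 were tested. Plaur, the urokinase receptor, had 845 to 1465 CPM in neutrophils and 187 to 293 CPM elsewhere, and was called lower than in neutrophils in each other population on both days. Cd177, a neutrophil surface protein that is also 1 of the 15 neutrophil markers, had 1750 to 3531 CPM in neutrophils, 981 to 1266 CPM in F4/80-, 221 to 565 CPM in CD9+ and 53.4 to 196 CPM in CX3CR1+ cells. Its order over the sorts is the one given above for Ly6g. Between the days Cd177 rose in CX3CR1+ cells with a log2 fold change of 1.70 (edgeR adjusted p = 0.00475).

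Ly6g5b, a relative outside this cluster, had 2.10 and 3.66 CPM in neutrophils on day 1, 8.05 and 10.5 CPM on day 14 and at most 0.822 CPM elsewhere. Only the neutrophils of day 14, with a mean of 9.26 CPM, took Ly6g5b through the filter on low counts. Its higher level in that group was thus set in part by the filter. Lypd6 had 2.30 and 4.04 CPM in CD9+ cells on day 14 and at most 0.340 CPM in any other library, most of which were at 0, so its fitted fold changes depend on the prior count. It passed the filter on low counts through that group alone, with a mean of 3.17 CPM. A higher level there than elsewhere was thus set in part by the filter. The 5 members of the list that were in the table but not tested stayed at or under 2.95 CPM. In all, 1 of the 4 tested genes was called higher on day 14 in CD9+ and 1 in CX3CR1+ cells, and 0 in F4/80- cells and neutrophils. Of all tested genes 8.23%, 5.86%, 3.25% and 14.1% were called in either direction in these 4 populations.

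Genes that make and attach the GPI anchor, on which these antigens depend, were counted in the same way. Of 28 listed, 27 were in the table and 25 tested. Between the days 1 rose in CD9+ cells (Pigx, 1.48 on the log2 scale), 1 in CX3CR1+ cells (Pgap1, 1.35) and 0 were called in F4/80- cells, where 8.23%, 5.86% and 3.25% of all genes were called. In neutrophils 3 rose, among them Pigu (1.07), and 1 fell (Piga, -1.06), against 14.1% of all genes called, with a median of 0.08 over the 25 genes against -0.02 over all genes. Summed over the list the level was 401 to 508 CPM in every library. Pgap1, which remodels the anchor, was higher in CX3CR1+ than in F4/80- cells by 2.52 on day 1 and 2.99 on day 14. Of the 25 genes 1 was called higher and 1 lower there on each day, against 21.1% and 21.5% of all genes called.

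Interferon-responsive genes were taken as the setting of Ly6e. Of 30 listed, all were in the table and 29 were tested. In neutrophils 8 fell from day 1 to day 14 and 0 rose, among them Cxcl10 (-3.22), a chemokine for T cells, and Mx1 (-1.64), an interferon-induced dynamin-like GTPase. The median of the list was -0.69, against -0.02 over all genes. In CX3CR1+ against F4/80- cells 25 were higher and 0 lower on day 14, such as Ifit3 (5.29) and Rtp4 (4.18), with a median of 2.46 against 0.05. In CD9+ against CX3CR1+ cells 19 were lower and 0 higher on that day, such as Xaf1 (-2.28) and Mx1 (-2.00), with a median of -1.25 against 0.01. Of all tested genes 14.1%, 21.5% and 14.2% were called in either direction in these comparisons, in the order given.

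The list did not follow Ly6e in every sort. On day 14, 17 of the 29 were lower and 3 higher in F4/80- cells than in neutrophils, while Ly6e was higher in F4/80- cells by 2.64. On day 1 these counts were 21 and 2, and Ly6e was higher by 1.05. Between these sorts 49% of all tested genes were called in either direction on day 1 and 48.7% on day 14. Rsad2 (-4.80) and Oasl2 (-4.70) were the farthest below neutrophils on day 1, and Rtp4 (-5.05) and Rsad2 (-4.70) on day 14. Mx1, named here after its value was seen, was higher on day 14 (4.53). The summed list was 1196 to 1862 CPM in neutrophils, 1043 to 1506 CPM in CX3CR1+, 522 to 853 CPM in CD9+ and 385 to 454 CPM in F4/80- cells, so the sort with the least Ly6e was among the highest on this list.

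As a description, the genes outside the family whose log2 CPM followed each member most closely over the 16 libraries were sought among all tested genes. The libraries are 8 pairs of replicates and share the large differences between sorts, so no test was made. For Ly6e they were Gbp3 (r = 0.995), Ms4a4c (0.99) and Ms4a6c (0.988). Gbp3, an interferon-induced GTPase that is also on the list above, had 48.6 to 71.3 CPM in CX3CR1+ cells, 23.8 to 35.1 CPM in CD9+, 14.5 to 22.1 CPM in F4/80- cells, and 4.29 and 7.33 CPM on day 1 and 1.80 and 2.26 CPM on day 14 in neutrophils. For Ly6g they were Pdzd8 (0.989), Fam160a2 (0.986) and Rapgef6 (0.985).

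For Ly6c2 the closest were Serpinb10 (0.892), Rfesd (0.844) and Foxred2 (0.838). Serpinb10, a serpin of haematopoietic cells, had 68.5 and 79.6 CPM in CX3CR1+ cells on day 14, its highest group as for Ly6c2, and 4.74 and 7.61 CPM in CD9+ cells on day 1, its lowest. For Ly6a they were Pls3 (0.896), Cadm1 (0.888) and 1700021F05Rik (0.883), and for Ly6i they included Nhlrc3 (0.84) and Wdr19 (0.83). The closest genes depended on the scaling. With library size alone Gbp3, Pls3 and Nhlrc3 stayed first for Ly6e, Ly6a and Ly6i, but Ramp1 (0.885) came first for Ly6c2 with Serpinb10 no longer among the 3 closest, and for Ly6g they were Mark2 (0.984), Arid3a (0.983) and Atp11b (0.982). Between members, with TMM factors, r was -0.936 for Ly6e and Ly6g, 0.683 for Ly6a and Ly6e and -0.16 for Ly6c2 and Ly6e.

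**Figure D5:**
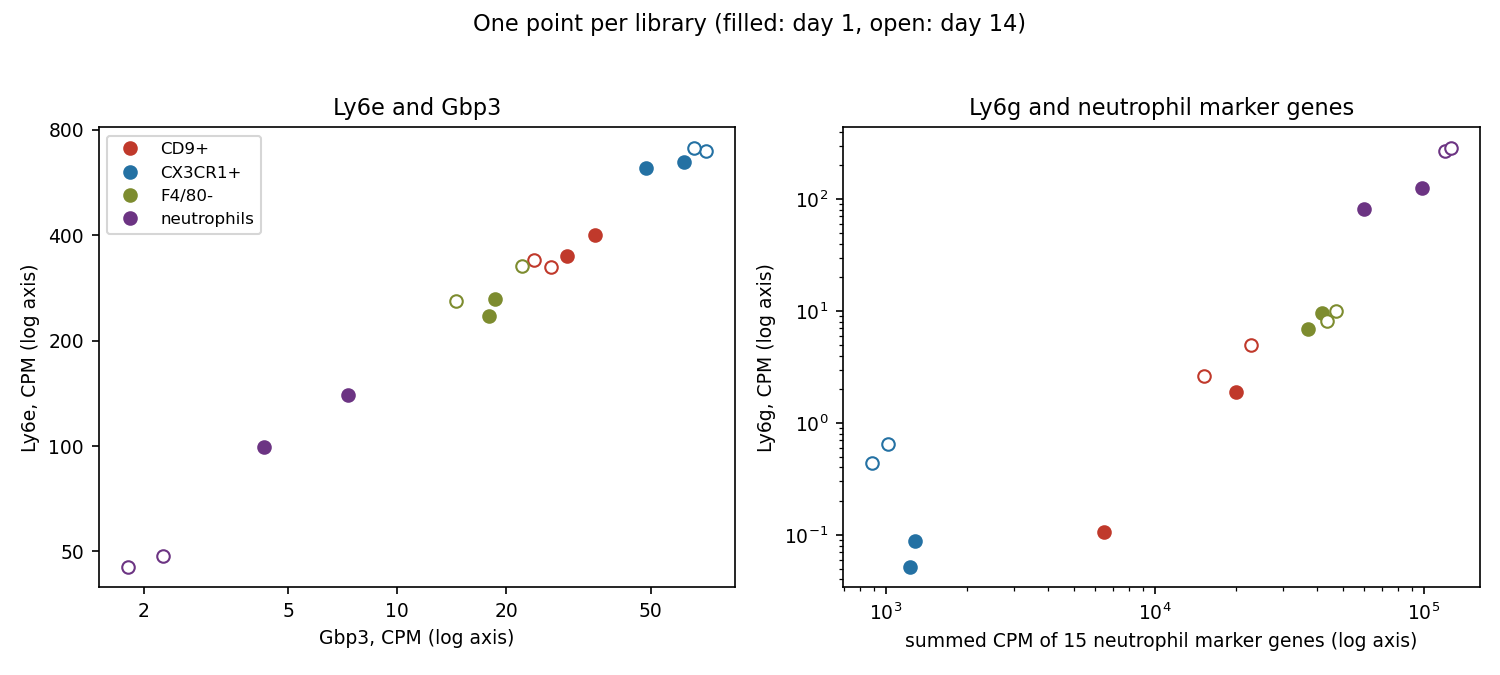
Left, Ly6e against Gbp3, both as CPM on log axes, in the 16 libraries. Right, Ly6g against the summed CPM of the 15 neutrophil markers, on log axes. Colours give the population, filled points day 1 and open points day 14. In the plot of Ly6e the CX3CR1+ libraries lie at the top right and neutrophils at the bottom left, and in the plot of Ly6g neutrophils lie at the top right and CX3CR1+ cells at the bottom left.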

How the data were processed

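The authors extracted RNA from sorted cells, made SMART-Seq Stranded libraries, removed adapters from the paired-end reads (Cutadapt), mapped these to the mm10 genome (STAR) and deposited the raw count of exonic reads per gene (Gencode M23). Whether the counting used strand is not given in the sources used here, and reads of relatives or of antisense neighbours may be split or lost. The smallest total of a gene in the table was 17 counts.

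The deposited counts were tested with edgeR 4.0.16 in R 4.3.3 (TMM factors, glmQLFit and glmQLFTest, limma 3.58.1) in 1 model of 8 group means, keeping genes with a group mean of at least 3 CPM in at least 1 group. Adjustment was by Benjamini-Hochberg over all tested genes. DESeq2 1.42.0 and other scalings, filters and fits were alternatives. The steps were tested on simulated data. RPKM used the exon lengths of Gencode M21. Figures were drawn with Python 3.11.15 and matplotlib 3.10.9. Named genes were all 6 members, the 3 most alike genes of each tested member (1 of these is not reported here), every tested Ly6 relative and, for each list and comparison discussed, the called genes with the 2 largest fold changes. Ccr2, Cx3cr1, Adgre1, Cd9, Csf3r, S100a8 and S100a9 were added after their values were seen. Members and lists were chosen with earlier results of these data known. Sequences came from RefSeq and Gencode.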

Additional observations from a re-analysis of the deposited data

Results flagged for a closer look

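The change of Ly6e from day 1 to day 14 differed between neutrophils and each other population by a test of the difference itself (edgeR's interaction term, Benjamini-Hochberg adjusted over all tested genes). The difference was 1.177 for CD9+, 1.502 for CX3CR1+ and 1.586 for F4/80- cells on the log2 scale, with adjusted p of 0.00376, 0.000424 and 0.00028. Ly6e was lower on day 14 in both neutrophil libraries than in both of day 1, and its values in the other sorts were -0.17, 0.15 and 0.23, none of them called.

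The same test picked out Ly6i, with differences of 4.987 for CD9+, 4.875 for CX3CR1+ and 5.54 for F4/80- cells (adjusted p = 0.0453, 0.0435 and 0.0444). These rest on 4 counts in the neutrophils of day 14 and were lost in 12, 12 and 13 of the 16 fits that left out a library. Groups of 2 libraries are too small to look for a single outlying library in this way.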

How the results depend on the processing

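Of the 39 called values of the 5 tested genes, no call changed direction under any setting. The 39 include the calls of Ly6g against neutrophils, which the sort fixed. They also include those of Ly6a with CD9+ cells of day 14 as the higher group, set in part by the filter. That such calls were kept does not show how steady the others are. DESeq2, upper quartile factors, no fold threshold, the added filter on CPM with TMM factors (chosen after seeing the data) and the replicate block kept all 39, with 4, 0, 4, 0 and 3 more called. No filter kept 38, library size alone 37 and the compared libraries alone 34. A filter in every group left Ly6c2 and Ly6e, with their 13 calls, so the calls fell to 1 between the days, 9 between populations and 3 in the change, and to 0 or 1 in each comparison. With the compared libraries alone, the members called were 0 in CD9+ cells over time and in CD9+ against CX3CR1+ and F4/80- cells on day 1, 3 in CD9+ against F4/80- cells on day 14 and 1 in the change of CD9+ cells against neutrophils. They were 2 with no filter in CD9+ cells over time and in CD9+ against F4/80- cells on both days, 2 with DESeq2 in the latter on both days and 1 in CX3CR1+ cells over time. With no fold threshold they were 2 in CD9+ against CX3CR1+ and F4/80- cells on day 1 and 1 in CX3CR1+ cells over time. With library size alone they were 2 in CD9+ against CX3CR1+ cells on day 1 and 1 in the changes of CX3CR1+ and F4/80- cells against neutrophils. The causes were not tested.

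Library size alone moved the all-gene median of the log2 fold changes to 0.385 to 0.62 in comparisons with neutrophils (upper quartile factors 0.267 to 0.355), to -0.2 and -0.27 for CD9+ against CX3CR1+ and F4/80- cells on day 1, and to 0.187 to 0.224 in the changes of CD9+ cells and CD9+ cells over time. Directions that turned, none of them called, were those of Ly6c2 against neutrophils in CD9+ cells on day 14 (0.0396 with library size alone), CX3CR1+ cells on day 1 (0.33, and 0.0281 with upper quartile factors) and F4/80- cells on day 14 (0.394, 0.0754, and 0.0432 with the filter in every group), of its change in CD9+ cells against neutrophils (0.101), and of Ly6e in CD9+ cells over time (0.0251).

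Some populations of a day shared mice, but the sources used here do not tie the replicate numbers to the pools, and the deviations of same-numbered libraries correlated with r of 0.0132 to 0.144, so the numbers were not taken as pairs in the reported fit. A fit with a replicate block within each day called 4, 31 and 7 values over time, between populations and in the change, against 4, 29 and 6 without it, and 2 in CD9+ against F4/80- cells on day 14.

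Leaving out 1 library kept 30 to 38 calls. The members called ranged over 0 to 2 in CD9+ cells over time, 0 to 1 and 1 to 2 for CD9+ against CX3CR1+ cells on days 1 and 14, 1 to 3 and 0 to 3 for CD9+ against F4/80- cells, 2 to 4 for CX3CR1+ cells against neutrophils on day 14, 2 to 5 over time in all and 2 to 10 in the change in all (0 to 1 for CD9+ against F4/80- cells, and 0 to 4, 1 to 2 and 1 to 3 for CD9+, CX3CR1+ and F4/80- cells against neutrophils). The values below, none of them called, turned in at least 1 of these fits. Ly6a ranged from -0.308 to 1.96 in CD9+ and -0.709 to 0.289 in CX3CR1+ cells over time, on day 1 from -0.757 to 1.51 for CD9+ against CX3CR1+, -0.0631 to 2.43 for CD9+ against F4/80- cells and -0.295 to 2.27 for F4/80- cells against neutrophils, and in the change from -0.18 to 2.09 for CD9+ against CX3CR1+ and -0.396 to 4.17 for F4/80- cells against neutrophils. Ly6c2 on day 1 against neutrophils ranged from -0.749 to 0.0918 in CD9+, -0.605 to 0.236 in CX3CR1+ and -0.339 to 0.502 in F4/80- cells, with changes of -0.553 to 0.288, -0.0886 to 0.752 and -0.672 to 0.169, and -0.125 to 0.328 for CD9+ against F4/80- cells. The change of Ly6e ranged from -0.257 to 0.0819 for CX3CR1+ against F4/80- cells. Ly6g ranged from -0.0658 to 0.401 in F4/80- cells over time, and its change from -1.77 to 2.3 and -0.416 to 3.65 for CD9+ against CX3CR1+ cells and neutrophils. Ly6i ranged from -0.482 to 4.6 in CD9+ and -0.185 to 0.653 in CX3CR1+ cells over time, from -4.97 to 0.121 and -1.58 to 4.37 for CD9+ against CX3CR1+ and F4/80- cells on day 1, and in the change from -0.778 to 4.31, -2.33 to 3.64 and -2.44 to 0.109 for CD9+ against CX3CR1+, CD9+ against F4/80- and CX3CR1+ against F4/80- cells. Depth limits Ly6a, Ly6c1 and Ly6i most, with totals of 282, 203 and 533 counts.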

Other observations

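A gene of the same cluster that is no member, I830127L07Rik, was chosen after its values were seen. Gencode lists it as a transcribed pseudogene between Ly6c2 and Ly6g, at 75131377 to 75135128 of chromosome 15 on the minus strand, and it held 31346 counts, more than Ly6g with 8302. It had 293 and 155 CPM in neutrophils on day 1, 446 and 484 CPM on day 14, 91.8 to 165 CPM in F4/80- cells, 61.9 to 137 CPM in CX3CR1+ cells and 54.7 to 105 CPM in CD9+ cells. In neutrophils it rose between the days with a log2 fold change of 1.05 (edgeR adjusted p = 0.00296), and it was called lower than in neutrophils in the other 3 populations on both days, by -2.37 to -1.11.

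Cd9, the gene of the antigen that defines the CD9+ sort, had more reads in neutrophils, with 673 and 676 CPM on day 1 and 345 and 346 CPM on day 14, than in CD9+ cells with 142 to 183 CPM. F4/80- cells had 107 to 121 CPM and CX3CR1+ cells, gated as CD9-, had 6.47 to 21.0 CPM.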
